A study of Mus musculus with 5 samples.

Results

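Nuclear genes that build, supply and shape mitochondria were followed across maps of BRG1 binding in mouse macrophages. The set holds 31 genes, listed by name, of 21887 protein-coding genes on chromosomes 1 to 19, X and Y. A BRG1 peak was assigned to a gene when its summit lay in the gene body or within 20 kb of it. All positions are on mm10. The study made chromatin immunoprecipitation and sequencing (ChIP-seq) libraries from primary macrophages grown from mouse bone marrow. The groups were Baf60a KO cells given oxLDL (oxLDL KO), WT cells given oxLDL (oxLDL WT), untreated KO cells and untreated WT cells, with 1 BRG1 library each, plus an input library without antibody that was not analysed here. BRG1 (gene Smarca4) is the motor of SWI/SNF remodelling complexes, which slide and evict nucleosomes, and BAF60a (gene Smarcd1) links such complexes to transcription factors. Oxidised low-density lipoprotein (oxLDL) is the modified lipoprotein that macrophages take up in the artery wall. The sources used here give neither the type of the knockout allele, nor the dose and time of oxLDL, nor how many mice of what age were used. Each group is 1 library, so nothing here has a replicate check or a p-value, and every difference compares libraries, not conditions.

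Mitochondria carry a small genome of their own, but nearly all of their proteins are encoded in the nucleus, made in the cytosol and imported. The nuclear factors NRF1, GABP and ERR-alpha, with the coactivators PGC-1alpha, PGC-1beta and PRC, drive many of these nuclear genes, including those that copy and transcribe mitochondrial DNA. Fusion and fission reshape the organelles and damaged ones are removed by mitophagy, processes that in macrophages accompany shifts between respiration and glycolysis.

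Each list gave a fold enrichment for every peak, the ratio of fragments piled up at the summit to the local background, as computed by the authors' peak caller, and a −log10 q, its significance after correction within that library. The lists held 4668 peaks in oxLDL KO, 9907 in oxLDL WT, 139 in KO and 237 in WT. The lowest local background, a measure of depth recovered from the peak values, was 3.42, 3.76, 3.84 and 2.7 fragments in that order of lists. At this background the smallest pileup listed was 12, 12, 15 and 12 fragments, so a gene without a listed peak may still have carried fewer fragments than that. Smarcd1, the targeted gene, had 0 peaks within 20 kb in oxLDL KO and 2 in oxLDL WT, and 0 in both untreated lists, and binding data of this kind cannot check the deletion. Of 12 macrophage marker genes, 9 had a peak within 20 kb in oxLDL KO and 12 in oxLDL WT; Cd14, Fcer1g and Mertk had none in oxLDL KO. Of 10 stromal and 10 hepatocyte markers, 0 had one in oxLDL KO and 1 of each in oxLDL WT. Lymphocyte markers counted 2 and 2 of 10, and neutrophil markers 2 and 5 of 10.

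Under oxLDL, peaks were listed at a similar number of the mitochondrial genes in both genotypes: 13 of 31 in oxLDL KO (41.9%, Wilson 95% interval 26.4 to 59.2) and 12 of 31 in oxLDL WT (38.7%, 23.7 to 56.2). Intervals here and below cover counting error only. The background, taken over the whole set of protein-coding genes, was 21.1% in oxLDL KO and 33.2% in oxLDL WT. Both lists held 11 of the genes, where 17.5% of all genes were in both. Pink1 and Vdac1 had a peak in oxLDL KO alone (3.55% of all genes), and Mfn1 in oxLDL WT alone (15.6% of all genes). Counting only summits within 1 kb of a listed transcription start or a gene end, 8 genes remained in oxLDL KO and 8 in oxLDL WT (25.8% each, interval 13.7 to 43.2), against 10% and 16.8% of all genes. Of these, 5 were the same genes (7.09% of all genes were in both lists), 3 were in oxLDL KO alone (2.94% of all genes) and 3 in oxLDL WT alone (9.69% of all genes). The genes with a start or end peak in both lists were Nrf1, Gabpb1, Esrra, Tfb2m and Polg2. These counts rest largely on low peaks. With a −log10 q limit of 5, 2 genes kept a peak within 20 kb in oxLDL KO and 5 in oxLDL WT, against 5.12% and 12.4% of all genes.

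**Figure D1:**
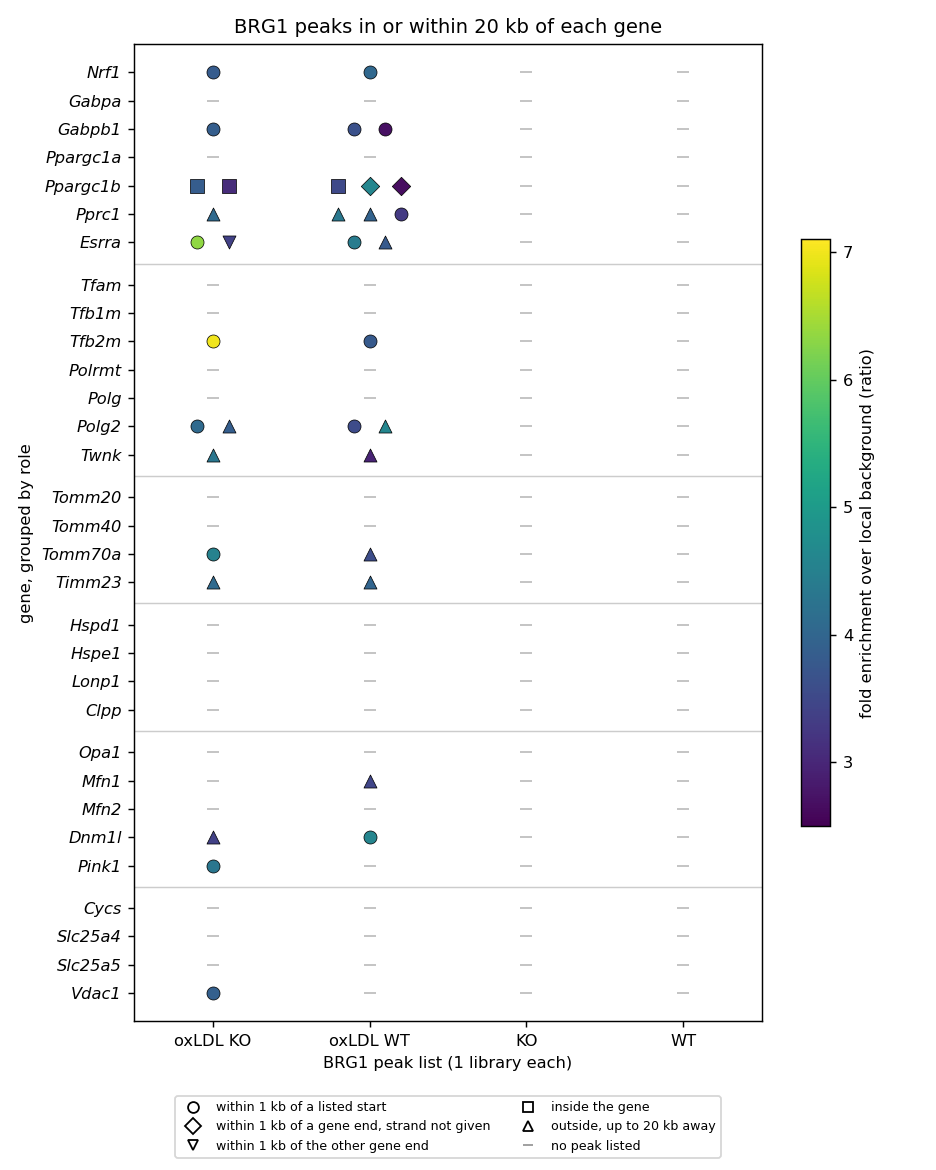
BRG1 peaks at the 31 genes, grouped by role from top to bottom as regulators, mitochondrial DNA expression, protein import, protein quality, dynamics and mitophagy, and electron carrier and membrane channels. Columns are the 4 peak lists, each symbol is 1 peak with its shape giving the position and its colour the fold enrichment (ratio), and a dash means that no peak was listed; the regulators hold the most symbols and both untreated columns are empty.

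Untreated cells gave no peak at any of the 31 genes, in KO or in WT. The Wilson interval of 0 of 31 reaches 11%. Of all protein-coding genes only 0.553% had a peak within 20 kb in KO and 1.19% in WT, and 0.178% and 0.306% had one near a start or end, so the empty lists are near the background and say little about these genes. The nearest untreated summit lay 300 kb from a member in both KO and WT, beside Nrf1 in each case. Set against untreated cells of the same genotype, oxLDL therefore left 13 genes in oxLDL KO against 0 in KO, and 12 in oxLDL WT against 0 in WT. The untreated lists are far shorter as a whole, and whether binding or the yield of the immunoprecipitation differed cannot be told apart.

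The regulators were the role group with the highest share, but its interval overlapped those of all other role groups. Of 7, 5 had a peak in oxLDL KO and the same 5 in oxLDL WT (71.4%, interval 35.9 to 91.8), against 21.1% and 33.2% of all genes. Near a start or end 3 and 5 had one, against 10% and 16.8% of all genes. These shares of all genes are also the background of the role groups below. Esrra, which encodes ERR-alpha, the nuclear receptor partner of the PGC-1 coactivators, lies on chromosome 19 from 6910977 to 6922048. Its start peak had a fold enrichment of 6.34 in oxLDL KO, with the summit at 6921596, and of 4.41 in oxLDL WT, at 6921725. The pileups were 27 fragments in oxLDL KO (95% Poisson interval 17.8 to 39.3) and 20 in oxLDL WT (12.2 to 30.9). The peaks shared 265 bp and lay 212 and 83 bp downstream of the start, and the intervals of the pileups overlapped. In oxLDL KO this peak ranked 52 of 4668 by fold enrichment, and in oxLDL WT 1793 of 9907. Past the other end of Esrra, a low peak lay 0.66 kb away in oxLDL KO (fold 3.39, inside Trmt112) and another 2.42 kb away in oxLDL WT (3.78, inside Prdx5), with no overlap.

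Nrf1, the gene of nuclear respiratory factor 1, a transcription factor for respiratory chain genes, spans 30047985 to 30153458 of chromosome 6. Its oxLDL KO peak had its summit 541 bp downstream of the start (fold 3.82, 18 fragments), and its oxLDL WT summit stood upstream, at −190 bp (fold 4.03, 20 fragments). The peaks did not overlap and were 374 bp apart, so both genotypes had a peak at the start but at different positions. Gabpb1, which encodes the activating subunit of GABP, lies on chromosome 2 from 126628907 to 126684435, and its pair of listed starts lies inside that span. In oxLDL KO it had 1 start peak, with the summit at 126674790 (fold 3.85, 16 fragments). In oxLDL WT it had a peak right at a start, at −34 bp from it (summit 126675626, fold 3.64), which no oxLDL KO peak overlapped. A weaker oxLDL WT peak (summit 126674670, fold 2.68) shared 131 bp with the oxLDL KO one. Gabpa, the DNA-binding subunit of GABP, had no peak in any list.

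Pprc1 encodes PRC, a PGC-1-related coactivator (chromosome 19, 46056526 to 46072909). In oxLDL KO its single peak lay 17.03 kb away, inside Ldb1 and 121 bp downstream of an Ldb1 start (fold 4.07). In oxLDL WT it had a start peak 280 bp downstream (fold 3.28, 15 fragments) and another pair of peaks inside Ldb1, 14.5 and 11.6 kb away (4.34 and 3.93). The only peak close to Pprc1 itself was therefore the oxLDL WT start peak. Ppargc1b, the gene of PGC-1beta, a coactivator of mitochondrial biogenesis, lies on chromosome 18 from 61291445 to 61400756, and its strand was not used here. Its oxLDL KO summits, at 61398824 (fold 3.84) and 61399500 (3.07), were both inside the gene. Its oxLDL WT summits were at 61399324 (3.51), 61400602 (4.62) and 61401742 (2.66), and the last pair lay within 1 kb of the gene boundary at 61400756. Without the strand, whether this boundary is the start of the gene or its other end was not determined. The oxLDL WT peak at 61400602 was 850 bp wide and was the highest of the gene in either list. Of these 5 peaks, 1 in each list overlapped the other, by 77 bp. Ppargc1a, which encodes PGC-1alpha, the coactivator best known from brown fat and muscle, had no peak in any list, although at 661605 bp it is the longest gene of the set.

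Genes that copy and transcribe mitochondrial DNA had peaks at 3 of 7 members in each oxLDL list, the same 3. Tfb2m encodes the initiation factor that opens mitochondrial promoters for the RNA polymerase. It lies on chromosome 1 from 179528052 to 179546305, and its start is 253 bp from that of Cnst, on the other strand. Its peak had a fold enrichment of 7.01 in oxLDL KO, the highest of all members in any list, and of 3.78 in oxLDL WT. The pileup was 30 fragments in oxLDL KO (20.2 to 42.8) and 17 in oxLDL WT (9.90 to 27.2), with local backgrounds of 3.42 and 3.76. The summits, at 179546656 in oxLDL KO and 179546699 in oxLDL WT, lay upstream of the Tfb2m start, at −380 and −423 bp, inside Cnst, and the whole 332 bp of the oxLDL WT peak lay in the oxLDL KO peak. Both summits were thus past the start of Cnst, and position alone cannot assign the peak to Tfb2m rather than to Cnst. In oxLDL KO the peak ranked 24 of 4668, and in oxLDL WT 4136 of 9907. The pileup intervals overlapped, as at Esrra. Polg2 encodes the accessory subunit of the mitochondrial DNA polymerase (chromosome 11, 106768204 to 106779537). Its start peaks, 258 bp downstream in oxLDL KO (fold 4.07, 17 fragments) and 173 bp downstream in oxLDL WT (3.55, 16 fragments), shared 277 bp. Behind its other end, peaks inside Milr1 lay 6.32 kb away in oxLDL KO (3.85) and 5.64 kb away in oxLDL WT (4.62), with a gap of 312 bp between them. Twnk, the gene of the mitochondrial DNA helicase (chromosome 19, 45005663 to 45012764), had no peak of its own: the broad overlapping peaks assigned to it lay inside Lzts2, 3.39 kb away in oxLDL KO (fold 4.30, 784 bp wide) and 3.08 kb away in oxLDL WT (2.94, 1158 bp wide). Tfam, which packages mitochondrial DNA, Tfb1m, which methylates mitochondrial ribosomal RNA, Polrmt, the mitochondrial RNA polymerase, and Polg, the catalytic polymerase subunit, had none in any list.

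The promoters of the 5 genes with a start peak in both oxLDL lists are shown to place these summits against sites of the factors that drive the pathway. Each runs 5′ to 3′ along the gene from 250 bases before to 50 after the start, from RefSeq on GRCm38.p6, the assembly of mm10. Of the 31 genes, 30 matched the promoter table. Capitals mark the matches to 6 short motifs, searched on both strands: NRF1 as GCGCNTGCG, ETS as CCGGAAG, ERR as TCAAGGTCA, AP1 as TGANTCA, EBOX as CACGTG and YY1 as AAGATGGCG.
Tfb2m promoter, chr1:179546227-179546526, minus strand: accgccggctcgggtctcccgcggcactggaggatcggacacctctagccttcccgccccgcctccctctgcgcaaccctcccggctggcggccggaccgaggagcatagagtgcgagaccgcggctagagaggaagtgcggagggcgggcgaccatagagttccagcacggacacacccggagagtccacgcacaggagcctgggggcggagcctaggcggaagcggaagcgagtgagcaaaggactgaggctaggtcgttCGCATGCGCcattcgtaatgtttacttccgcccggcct
Esrra promoter, chr19:6921759-6922058, minus strand: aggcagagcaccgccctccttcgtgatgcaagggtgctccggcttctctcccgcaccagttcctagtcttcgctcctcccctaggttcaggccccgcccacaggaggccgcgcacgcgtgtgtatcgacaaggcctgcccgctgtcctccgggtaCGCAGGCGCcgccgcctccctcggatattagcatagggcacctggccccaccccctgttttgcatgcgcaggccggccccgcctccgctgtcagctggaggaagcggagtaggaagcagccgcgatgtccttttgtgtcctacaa
Polg2 promoter, chr11:106779488-106779787, minus strand: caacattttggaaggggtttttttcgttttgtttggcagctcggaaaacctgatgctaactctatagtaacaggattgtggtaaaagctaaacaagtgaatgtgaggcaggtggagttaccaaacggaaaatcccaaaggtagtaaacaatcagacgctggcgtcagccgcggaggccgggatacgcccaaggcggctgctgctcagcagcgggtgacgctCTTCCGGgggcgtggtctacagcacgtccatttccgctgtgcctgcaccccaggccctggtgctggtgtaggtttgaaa
Nrf1 promoter, chr6:30047738-30048037, plus strand: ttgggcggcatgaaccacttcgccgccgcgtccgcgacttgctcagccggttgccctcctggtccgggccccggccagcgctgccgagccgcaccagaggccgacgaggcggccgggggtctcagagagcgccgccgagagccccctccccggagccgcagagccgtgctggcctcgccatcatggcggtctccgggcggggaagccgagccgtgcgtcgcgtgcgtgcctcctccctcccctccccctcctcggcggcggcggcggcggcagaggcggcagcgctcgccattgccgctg
Gabpb1 promoter, chr2:126675543-126675842, minus strand: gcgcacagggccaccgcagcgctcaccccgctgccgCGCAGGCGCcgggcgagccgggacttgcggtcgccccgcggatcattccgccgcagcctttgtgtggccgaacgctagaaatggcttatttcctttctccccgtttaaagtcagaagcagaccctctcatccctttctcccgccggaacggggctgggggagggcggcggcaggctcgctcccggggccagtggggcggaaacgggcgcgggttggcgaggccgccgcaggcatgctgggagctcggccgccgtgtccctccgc
In these windows an NRF1 match stood in Tfb2m at position 13 after the start, in Esrra at position −95 and in Gabpb1 at position −214, and an ETS match in Polg2 at position −29. The Nrf1 window held none of the 6 motifs. The highest start peaks covered little of these windows: 39 bases of the Tfb2m window in oxLDL KO and 0 in oxLDL WT, 1 and 3 bases for Esrra, 0 and 0 for Polg2, 0 and 166 for Nrf1, and 0 and 194 for Gabpb1.

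Over all 30 members with a listed start, 10 (33.3%) had an NRF1 match in a promoter window and 15 (50%) an ETS match, against 9.68% and 12.9% of 17492 protein-coding genes. These shares were not adjusted for the GC and CpG content of the windows, given below. AP1 matches stood at 3 members (10%, against 8.12% of all genes), EBOX at 3 (10% against 8.91%), YY1 at 1 (3.33% against 2.14%) and ERR at 0 (0.377% of all genes). By start peak, NRF1 matches stood at 4 of 10 members with a start peak in an oxLDL list and 6 of 20 without, and ETS matches at 4 of 10 and 11 of 20, so the motifs leaned in opposite directions, and neither difference was tested. The median GC content of the windows was 66.7% at the 10 with a start peak and 61.0% at the 20 without, against 65.7% and 55.0% among all genes with and without one. The median ratio of observed to expected CpG was 0.777 and 0.910 at the members, against 0.833 and 0.499 among all genes. The median member without a start peak thus had a higher CpG ratio than the median gene without one.

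Protein import showed peaks at 2 of 4 members in both lists, with a start peak at 1 gene in oxLDL KO and 0 in oxLDL WT. Tomm70a encodes a receptor of the outer membrane translocase (chromosome 16, 57121714 to 57154530). In oxLDL KO its peak lay 240 bp downstream of the start (fold 4.53, 19 fragments). In oxLDL WT the nearest summit was 12.4 kb beyond the far end of the gene, inside Nit2 and 353 bp downstream of the Nit2 start (3.57), so the gene counted in both lists had a start peak in oxLDL KO alone. Timm23, the channel of the inner membrane translocase (chromosome 14, 32180166 to 32201891), was assigned peaks inside Ncoa4, 11.4 kb away in oxLDL KO (4.07) and 12.1 kb away in oxLDL WT (3.99), which were 326 bp apart. Just past the 20 kb limit Timm23 had further summits, at 20.01 kb in oxLDL KO (4.53) and 20.05 kb in oxLDL WT (5.67). Tomm20, an import receptor, had summits just outside the limit at 20.23 kb in oxLDL KO (3.98) and 21.39 kb in oxLDL WT (3.37), and none inside it. Tomm40, which forms the outer membrane pore, had none.

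Protein quality genes had no peak in any list. This covers Hspd1 and Hspe1, the chaperonin pair whose starts lie 95 bp apart on opposite strands, and the matrix protease genes Lonp1 and Clpp. With 4 genes, the Wilson interval of a count of 0 reaches 49%.

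Among the 5 genes of dynamics and mitophagy, 2 had a peak in oxLDL KO and 2 in oxLDL WT, with start peaks at different genes. Dnm1l encodes DRP1, the dynamin that divides mitochondria (chromosome 16, 16312228 to 16359038). In oxLDL WT its peak had the summit at −119 bp from a start (fold 4.59, 21 fragments, −log10 q 5.85). In oxLDL KO the single peak assigned to it was 8.82 kb away, inside Yars2 and 445 bp downstream of the Yars2 start (3.39), and Dnm1l itself had none. Pink1, the kinase that marks damaged mitochondria for mitophagy (chromosome 4, 138313409 to 138326296), had a peak 255 bp downstream of its start in oxLDL KO (4.30, 18 fragments) and none within 20 kb in oxLDL WT. Mfn1, a fusion protein of the outer membrane, was assigned 1 oxLDL WT peak, 18.6 kb away inside Zfp639 and 238 bp downstream of the Zfp639 start (3.45), the farthest of all assigned summits. Opa1 and Mfn2, which fuse the inner and outer membranes, had none.

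Of the electron carrier and channel genes, Vdac1, the metabolite channel of the outer membrane (chromosome 11, 52360851 to 52389397), had a peak 174 bp downstream of a start in oxLDL KO (fold 3.90, 19 fragments) and none in oxLDL WT. Cycs, which encodes cytochrome c, and Slc25a4 and Slc25a5, which encode ADP/ATP carriers, had none in any list. Slc25a5 lies on the X chromosome, where the lists hold no peaks at all.

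**Figure D2:**
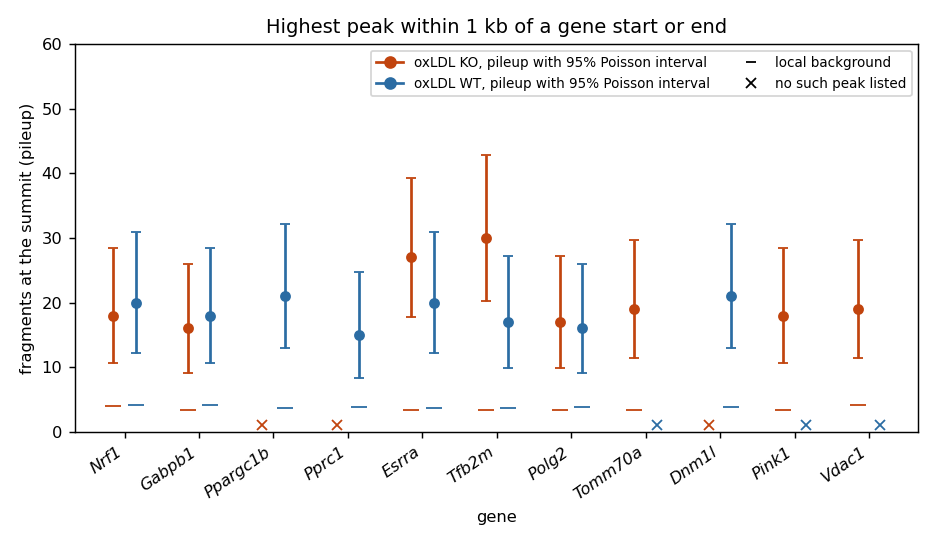
Fragments at the summit (pileup, y axis) of the highest peak within 1 kb of a start or end, for the 11 genes that had one in an oxLDL list. Points are pileups with 95% Poisson intervals, short bars the local background and crosses mark lists without such a peak; pileups run from 15 to 30 and the intervals of both genotypes overlap at each of the 5 genes with a pair.

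Compared peak by peak, most peaks of the 2 genotypes did not overlap at these genes. In each list the interval of the overlapping share included the share of the whole list. Of 16 peaks in oxLDL KO, 6 shared at least 1 bp with one in oxLDL WT (37.5%, interval 18.5 to 61.4), where 59.6% of the whole oxLDL KO list did. Of 19 in oxLDL WT, 6 did so with one in oxLDL KO (31.6%, interval 15.4 to 54.0), where 27.3% of the whole oxLDL WT list did. The overlap rests on low peaks: 3 peaks of each list overlapped with a −log10 q limit of 2 or a common −log10 p limit of 5.33, and 1 with a −log10 q limit of 5. At that last limit 2 peaks in oxLDL KO and 5 in oxLDL WT were left at these genes. Whether overlap in the whole lists falls in the same way under these limits was not tested. The overlapping sites were the starts of Esrra and Polg2, the site inside Cnst upstream of the Tfb2m start, the Gabpb1 site downstream of its starts, the site inside Ppargc1b and the Lzts2 site beside Twnk. Fold enrichment of the peaks ran from 3.07 to 7.01 with a median of 3.99 in oxLDL KO, and from 2.66 to 4.62 with a median of 3.78 in oxLDL WT, against medians of 3.85 and 3.75 over all peaks of the lists. By rank of fold enrichment, 11 of the 16 peaks in oxLDL KO and 10 of the 19 in oxLDL WT stood above the middle of their list. In the top 1% were 1 of the 16 in oxLDL KO and 0 of the 19 in oxLDL WT. No peak at these genes had a raised local background, which was defined as over 5 times the lowest of its list.

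By position, 8 of 14 oxLDL KO peaks (57.1%) and 8 of 16 oxLDL WT peaks (50%) at genes with a listed start lay within 1 kb of such a start, against 33.6% and 27.3% of all pairs of gene and peak within 20 kb. None of these lay deeper inside a gene, where 21.0% and 24.8% of all pairs did. Ppargc1b, which has no listed start and is not in this tally, held 2 inside summits in oxLDL KO and 1 in oxLDL WT. Outside peaks numbered 5 in oxLDL KO and 8 in oxLDL WT, and all 5 and all 8 summits were inside another protein-coding gene, 3 and 4 of them within 1 kb of a start of that gene or a neighbour. A peak assigned across such a distance is not shown to act on the mitochondrial gene. At the 5 genes with a start peak in both lists, the highest oxLDL KO summit lay downstream of the oxLDL WT one in 5 of 5, by 731 bp at Nrf1, 836 bp at Gabpb1, 129 bp at Esrra, 43 bp at Tfb2m and 85 bp at Polg2. Among 1210 genes with a start peak in both lists this held for 52.4%, with a median shift of 13 bp. At Gabpb1 the lower oxLDL WT peak, which overlapped the oxLDL KO one, went the other way. Its summit lay 682 bp downstream of the nearest start, against 562 bp in oxLDL KO. At Tfb2m both summits lay inside Cnst, and along Cnst, on the other strand, that shift runs upstream. The shift between highest summits was chosen after the values had been seen and rests on 5 genes.

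**Figure D3:**
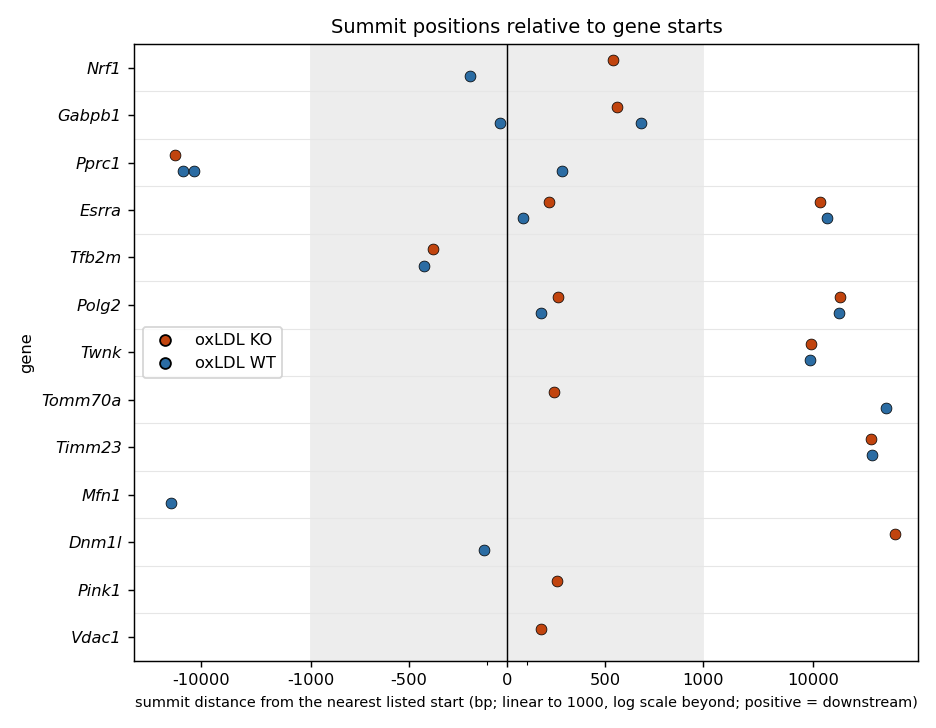
Distance of each summit from the nearest listed start of its gene (x axis, bp, linear to 1000 and log beyond, positive downstream) for the 13 genes with a peak and a listed start. Orange points are oxLDL KO and blue points oxLDL WT peaks, and the grey band is 1 kb to either side of the start; at Nrf1 the oxLDL KO summit is 541 bp downstream and the oxLDL WT summit at −190 bp.

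As a pool, other genes of the same processes had fewer peaks in oxLDL KO than in oxLDL WT, as all protein-coding genes did. Of 135 further genes in 6 lists, 35 had a peak within 20 kb in oxLDL KO (25.9%) and 60 in oxLDL WT (44.4%), against 21.1% and 33.2% of all genes. Near a start or end 12 and 30 had one (8.89% and 22.2%), against 10% and 16.8% of all genes. Near starts or ends both lists shared 7 (7.09% of all genes), oxLDL KO alone had 5 (2.94% of all genes) and oxLDL WT alone 23 (9.69% of all genes). The lists differed in this: other regulators had near-equal counts, 10 and 11 of 18 within 20 kb and 5 and 5 near a start or end, with start peaks in both lists at Nrip1, which encodes the corepressor RIP140 (fold 3.62 in oxLDL KO and 4.80 in oxLDL WT), at the corepressor gene Ncor1 (4.49 and 4.08), and at Sirt1, a deacetylase that acts on PGC-1alpha (2.73 and 3.55). Prkaa1, a catalytic subunit of the energy sensor AMPK, had one in oxLDL WT alone (4.55). Other genes of mitochondrial DNA expression had 4 of 19 within 20 kb in oxLDL KO and 5 in oxLDL WT, and 0 and 4 near a start or end, led by the elongation factor gene Tefm (4.2). Tefm had a peak within 20 kb in both lists. Other import genes had 7 and 10 of 31 within 20 kb and 3 and 5 near a start or end, with Mipep, a matrix peptidase, in both (4.75 and 4.03).

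The widest gap was in other genes of dynamics and mitophagy, with 3 of 28 in oxLDL KO and 14 of 28 in oxLDL WT within 20 kb (10.7%, interval 3.71 to 27.2, and 50%, interval 32.6 to 67.4), against 21.1% and 33.2% of all genes. The intervals did not overlap each other, but each included the share of all genes. This list was picked out by its values, and the members of the same role had 2 and 2 of 5. Among the 28 other genes Trak2, an adaptor for mitochondrial transport, had start peaks in both (3.90 and 3.96), and 2 and 8 genes had a peak near a start or end. The mitophagy receptor gene Bnip3l had a peak near a start or end, not told apart, in oxLDL WT (3.83) and none within 20 kb in oxLDL KO. Sqstm1, also a mitophagy receptor gene, had a start peak in oxLDL WT alone (3.62) but a peak within 20 kb in both lists. Other protein quality genes had 4 and 8 of 16 within 20 kb and 1 and 4 near a start or end. Afg3l2, a subunit of the inner membrane m-AAA protease, was in both (4.07 and 4.62), and Parl, the protease that cleaves PINK1, in oxLDL WT alone (4.59). Other carriers and channels had 7 and 12 of 23 within 20 kb and 1 and 4 near a start or end. By the start or end count Slc25a28, an iron carrier, was in oxLDL KO alone (4.07), with a peak within 20 kb in both lists, and Vdac3 in oxLDL WT alone (4.17).

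**Figure D4:**
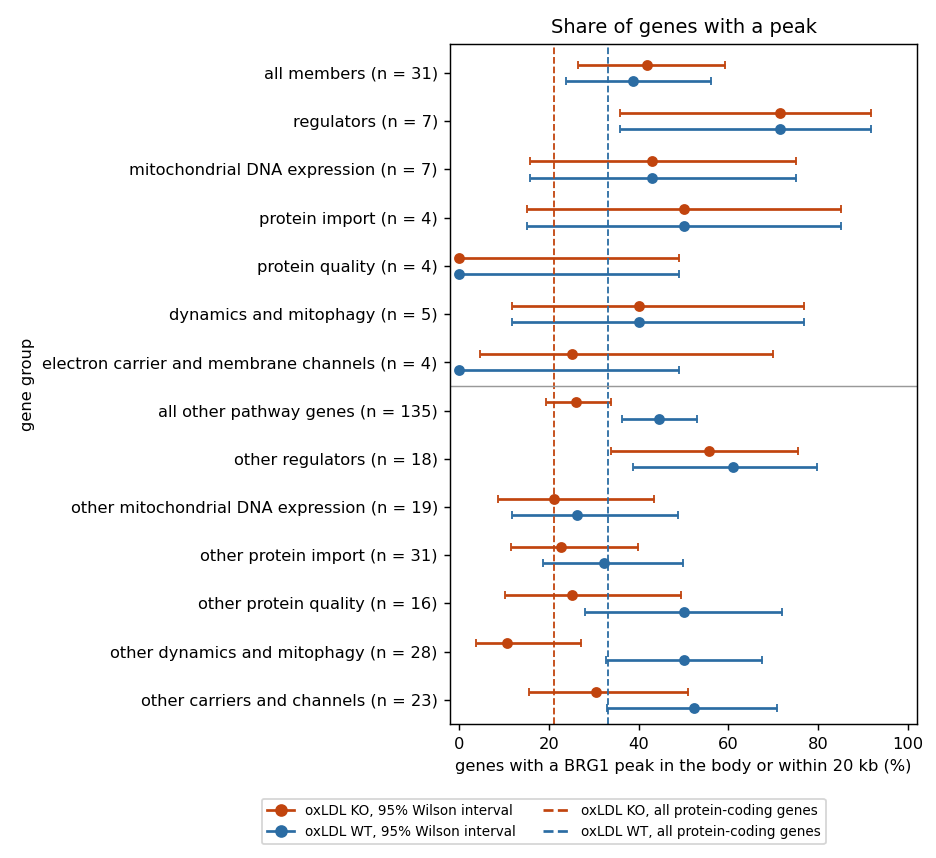
Share of genes (x axis, %) with a BRG1 peak in the body or within 20 kb, for the 31 genes and their role groups above the grey line and for the other pathway genes below it. Orange points are oxLDL KO and blue points oxLDL WT with 95% Wilson intervals, and dashed lines mark all protein-coding genes (21.1% and 33.2%); the 31 genes had 41.9% and 38.7%, and the other genes of dynamics and mitophagy 10.7% and 50%.

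The 14 genes with a peak in an oxLDL list had a median length of 25.1 kb and the 17 without one 12.9 kb, close to the 24.7 and 13.4 kb of all genes with and without a peak. A longer gene spans more sequence in which a summit can fall, and whether length plays a part here was not tested. Both sets had a median of 2 other protein-coding genes within 20 kb.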

How the data were processed

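BRG1 ChIP-seq peak lists of 4 libraries were analysed, 1 list per library, with groups taken from the sample titles. Chromatin was prepared with an enzymatic kit and sequenced as paired ends, per the labels' protocols. Tools named in the submitters' processing notes, with no role stated, are MACS3, Bowtie2, Trimmomatic 0.33 and bcl2fastq 2.17, and the build is mm10. Per the values in the deposited lists, the score is the −log10 q times 10, truncated, and the fold enrichment is a ratio at the summit; −log10 p, −log10 q and summits were used as deposited. The authors' lists hold no read totals, so pileup and background were solved from fold enrichment, with a pseudocount of 1, and a Poisson p-value. Pileups came out whole, within 2% of a step, for 97.12% of peaks or more in each list.

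Gene positions came from RefSeq on GRCm38.p6. Strand and starts came from the RefSeq promoter table, which holds 17492 of the 21887 genes. Near a start or end means within 1 kb. Overlap means at least 1 bp. Shares have Wilson and pileups exact Poisson 95% intervals. Python 3.11.15, pandas 2.3.3 and scipy 1.17.1 were used, and the assignment was tested on simulated peaks. The named genes are all 31 members and, from each list of other pathway genes, up to 3 with a start or end peak in both oxLDL lists and up to 3 in one, by fold enrichment; the text gives a part of the latter. Members, lists and motifs were chosen with earlier results of these data known. Symbols without a match numbered 6, all in the other lists. Alternatives changed the −log10 p or q limit, the windows, the overlap, the high-background peaks and the use of the summit.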

Additional observations from a re-analysis of the deposited data

How the results depend on the processing

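Of 174 values under alternatives, 150 stayed within 1.5 times of the reported count and 24 did not. This tally overstates stability. Many of the 150 were counts from the untreated lists, which were 0 under every setting, and some values repeat others. At a −log10 q of at least 5, 11 values did not stay, and the 11 that stayed were all counts of 0. All values without high-background peaks, with peaks placed by any base, with a start or end limit of 500 bp or 2 kb, or with an overlap of 50% stayed within 1.5 times. At a −log10 q of at least 5, genes with a peak within 20 kb numbered 2 in oxLDL KO and 5 in oxLDL WT (both also being the counts against 0 in untreated cells), of which 1 was in both lists, 1 in oxLDL KO alone and 4 in oxLDL WT alone. Near starts or ends 2 and 3 were left, against 1.97% and 4.24% of all genes, and 1 peak of each list overlapped. A −log10 q of at least 2, or a common −log10 p limit of 5.33, left 3 overlapping peaks in each list, in place of 6. A 5 kb window gave 10 genes in oxLDL KO and 9 in oxLDL WT, against 14.8% and 24.4% of all genes. A 1 kb window gave 9 and 8, against 13.1% and 21.6%. Windows of 5 kb and 1 kb left 7 and 6 genes in both lists and 2 in oxLDL WT alone under each. A 50 kb window gave 18 genes in oxLDL KO and 19 in oxLDL WT (against 0 in WT), where all genes had 31.4% and 45.6%, with 3 in oxLDL WT alone, and 12 overlapping peaks in each list. No paired analysis was possible because each group has 1 library, and no replicate could be left out. Fragment depth limits all calls: peaks at these genes rest on 13 to 30 fragments, and a total read number was not used here.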
